A study of Arabidopsis thaliana with 16 samples.

Results

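Seedlings of the Arabidopsis thaliana mutant rrp4-2 were set directly against seedlings of the mutant hen2-4, in 2 RNA-seq libraries of each line. These 4 libraries, chosen by their labels out of 16 in the series, were rRNA-depleted, stranded total RNA. Both lines are in the Col-0 accession and were sampled with fully expanded green cotyledons after 57 h of light, following stratification in cold water in the dark and shaking in liquid medium under continuous light at one temperature. Each line is a single allele, and the methods genotype rrp4-2 as a base change. The 2 Col-0 libraries of the same stage (L57) are given last, beside the mutants, to show where the wild type stood. In bulk RNA of seedlings, fewer cells of a type and less RNA per cell cannot be told apart.

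The RNA exosome is a ring of core subunits with associated exonucleases that trims and degrades RNA from the 3′ end. RRP4 encodes one of the cap subunits of that ring and therefore takes part in nuclear and cytoplasmic decay. HEN2 encodes an RNA helicase of the nucleoplasm that feeds spurious transcripts, long non-coding RNAs, snoRNA precursors and misprocessed mRNAs to the exosome, while the related helicase MTR4 serves the nucleolus, where the rRNA precursor is trimmed. The comparison of both lines thus sets a change in the exosome itself against a change in one of its nuclear cofactors.

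The estimated counts added up to 238305219 and 266418636 in the rrp4-2 libraries, 257524576 and 260733871 in the hen2-4 libraries and 96319042 and 112231212 in the L57 libraries. Levels are given on the counts-per-million scale (CPM), relative to the total of each library. Log2(CPM + 1) correlated at a Pearson r across genes of 0.997 between the rrp4-2 libraries, 0.998 between the hen2-4 libraries and 0.991 to 0.994 between the lines, where genes are not independent replicates. The chloroplast genome accounted for 47.5% and 49.7% of counts in rrp4-2 and 47.0% and 46.6% in hen2-4, against 41.2% and 43.4% in L57. Since the labels do not say that replicates came from separate cultures, p-values measure only the spread between these samples. Comparisons of either mutant with L57 share the same L57 libraries, which were also shallower, and are given as values side by side.

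HEN2 itself (AT2G06990, chromosome 2, 2894904 to 2902020) had 21.2 and 16.3 CPM in the rrp4-2 libraries, against 68.7 and 66.3 CPM in the libraries labelled hen2-4 and 17.2 and 15.3 CPM in L57. The libraries labelled hen2-4 therefore held more HEN2 reads than all others (log2 fold change of rrp4-2 over hen2-4 -1.88, SE 0.08, adjusted p = 1.35e-07 in edgeR's quasi-likelihood test with Benjamini-Hochberg adjustment over all genes). That test is behind every adjusted p here unless DESeq2 is named, and values of single transcripts were adjusted over all transcripts. A count over a whole gene does not say which part of the transcript was made, so the HEN2 level neither checks the label nor measures functional helicase mRNA. RRP4 (AT1G03360, chromosome 1, 824517 to 826399) had 6.88 and 4.70 CPM in rrp4-2, 5.54 and 6.11 CPM in hen2-4 and 6.07 and 4.81 CPM in L57. Its libraries overlapped (log2 fold change -0.04, SE 0.12, adjusted p = 0.961), and a base change need not alter a level.

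Of 28824 genes tested, 1431 were higher and 1312 lower in rrp4-2 than in hen2-4, that is 9.52% in all, 4.96% higher and 4.55% lower. Most differences were small: the median log2 fold change was 0.52 among the higher and -0.52 among the lower genes, and 252 and 229 of them differed by 2-fold or more, or 1.67% of all genes. The number of calls rested on every library. It was 1199 without rrp4-2 replicate 1, 2099 without rrp4-2 replicate 2, 1357 without hen2-4 replicate 1 and 1282 without hen2-4 replicate 2. Of the genes higher in rrp4-2, 462 passed above L57 in rrp4-2 and 815 passed below L57 in hen2-4, with 38 in both groups, where 26.6% of all genes passed in either direction between rrp4-2 and L57 and 30.2% between hen2-4 and L57. Of the genes lower in rrp4-2, 368 passed below L57 in rrp4-2 and 853 passed above L57 in hen2-4, with 35 in both.

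The 10 genes with the largest rises in rrp4-2 were 7 coding genes and 3 non-coding RNAs. AGP30 (AT2G33790), an arabinogalactan protein of the cell wall known from roots, had 8.88 and 8.53 CPM in rrp4-2, against 0.975 and 0.798 CPM in hen2-4 and 0.748 and 0.472 CPM in L57 (log2 fold change 3.27, SE 0.50, adjusted p = 0.00215). HMA2 (AT4G30110), a pump that exports zinc from cells, had 6.87 and 6.76 CPM in rrp4-2, 0.815 and 0.675 CPM in hen2-4 and 3.93 and 3.11 CPM in L57 (log2 fold change 3.17, SE 0.25, adjusted p = 2.66e-05). AGP30 was thus high in rrp4-2 alone, while HMA2 was above L57 in rrp4-2 and below it in hen2-4. FTM1 (AT1G43800), an acyl-carrier-protein desaturase, had 7.32 and 5.69 CPM in rrp4-2, 0.714 and 1.22 CPM in hen2-4 and 17.8 and 9.58 CPM in L57 (log2 fold change 2.72, SE 0.25, adjusted p = 4.57e-05). ELIP1 (AT3G22840), an early light-induced protein that protects against excess light, had 75.2 and 47.6 CPM in rrp4-2, 16.3 and 17.1 CPM in hen2-4 and 149 and 101 CPM in L57 (log2 fold change 1.85, SE 0.17, adjusted p = 4.76e-05). For these genes the L57 libraries lay above both mutants. AT2G47010, annotated as a calmodulin-dependent kinase, followed the same order with 6.03 and 5.34 CPM in rrp4-2, 1.65 and 1.38 CPM in hen2-4 and 9.53 and 8.41 CPM in L57 (log2 fold change 1.88, SE 0.23, adjusted p = 0.000372). The long non-coding RNA AT4G14548 was highest in rrp4-2, at 13.6 and 16.3 CPM, against 3.84 and 3.298 CPM in hen2-4 and 1.88 and 1.58 CPM in L57 (log2 fold change 2.05, SE 0.17, adjusted p = 1.84e-05).

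**Figure D1:**
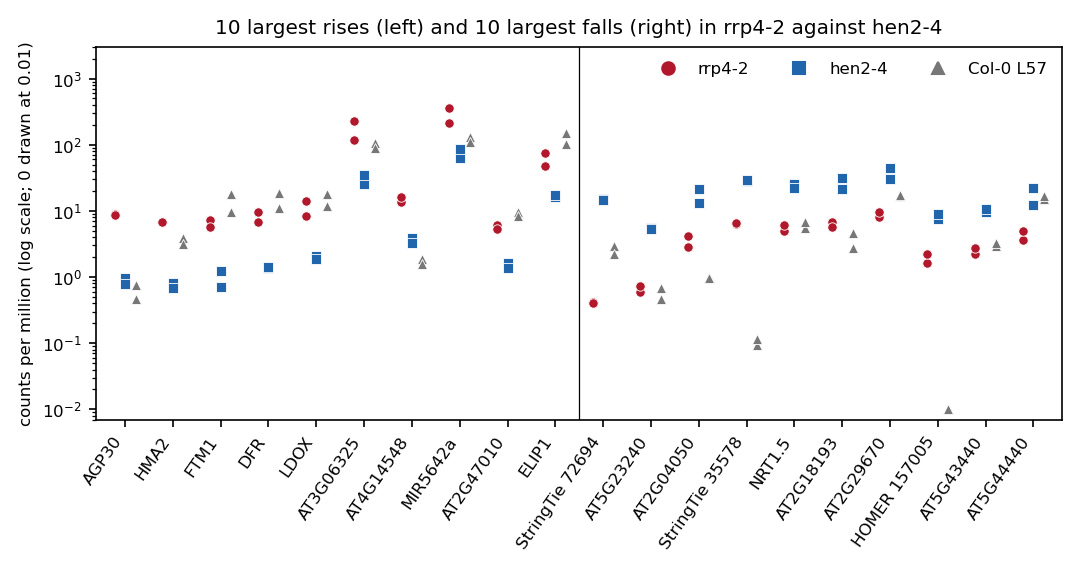
CPM on a log axis for the 10 genes with the largest rises (left of the line) and the 10 with the largest falls (right) in rrp4-2 against hen2-4, with 1 point per library (rrp4-2 circles, hen2-4 squares, Col-0 L57 triangles, 0 drawn at 0.01). Only genes whose rrp4-2 points do not overlap the hen2-4 points were eligible. The L57 points lie between, beside or beyond them, such as 149 and 101 CPM for ELIP1.

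Among the largest falls in rrp4-2 were 3 transcripts reconstructed de novo and 7 coding genes. NRT1.5 (AT1G32450), a nitrate transporter that loads the xylem, had 5.00 and 6.08 CPM in rrp4-2, against 25.9 and 22.1 CPM in hen2-4 and 5.52 and 6.86 CPM in L57 (log2 fold change -2.13, SE 0.18, adjusted p = 3.65e-05). AT5G23240, which encodes a protein with a DnaJ chaperone domain, had 0.596 and 0.732 CPM in rrp4-2, 5.55 and 5.28 CPM in hen2-4 and 0.467 and 0.686 CPM in L57 (log2 fold change -3.04, SE 0.63, adjusted p = 0.0103). AT2G04050, a MATE efflux transporter, had 4.24 and 2.80 CPM in rrp4-2, 12.95 and 21.75 CPM in hen2-4 and 0.986 and 0.962 CPM in L57 (log2 fold change -2.33, SE 0.23, adjusted p = 6.5e-05). For these 3 genes hen2-4 stood apart, and rrp4-2 passed against L57 for AT2G04050 (log2 fold change 1.92, SE 0.26, adjusted p = 0.000208) but not for the others, with an adjusted p of 0.808 for NRT1.5 and 0.843 for AT5G23240. The call of AT5G23240 was lost in each fit without 1 library, at an adjusted p of 0.109 and 0.0542 without rrp4-2 replicates 1 and 2 and 0.0832 and 0.0782 without hen2-4 replicates 1 and 2. AT2G29670, a protein with tetratricopeptide repeats, lay on both sides of L57, with 8.04 and 9.66 CPM in rrp4-2, 30.1 and 44.3 CPM in hen2-4 and 16.9 and 17.5 CPM in L57 (log2 fold change -2.09, SE 0.17, adjusted p = 1.46e-05). AT5G44440, a berberine-family oxidase, was low in rrp4-2 alone, at 3.61 and 5.05 CPM, against 22.5 and 12.1 CPM in hen2-4 and 15.1 and 16.6 CPM in L57 (log2 fold change -2.01, SE 0.34, adjusted p = 0.00318).

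The largest of these 10 falls was in a de novo transcript of chromosome 3. STRINGTIE_RNA_00072694 (11509381 to 11510444, plus strand) had 0.424 and 0.409 CPM in rrp4-2, against 15.1 and 14.7 CPM in hen2-4 and 2.92 and 2.24 CPM in L57. Its rrp4-2 libraries were the lowest and its hen2-4 libraries the highest (log2 fold change -5.18, SE 0.12, adjusted p = 1.49e-10 for rrp4-2 over hen2-4). Against L57 the log2 fold change was -2.54 in rrp4-2 (SE 0.12, adjusted p = 1.12e-07) and 2.64 in hen2-4 (SE 0.10, adjusted p = 1.16e-08). On the opposite strand it overlaps the long non-coding RNA AT3G05945, which was also lower (log2 fold change -3.67, SE 0.73, adjusted p = 0.00702), at 0.0126 and 0.0150 CPM in rrp4-2 and 0.171 and 0.192 CPM in hen2-4. The call of AT3G05945 was lost without any 1 of the 4 libraries (adjusted p from 0.0532 to 0.124). The bases around its start, read from the TAIR10.1 assembly of RefSeq at chr3:11509281-11509480 on the plus strand, are shown because this RNA carried the largest fall among the 10 named, with the first 100 bases of the transcript in capitals and the 100 bases before it in lower case.
STRINGTIE_RNA_00072694: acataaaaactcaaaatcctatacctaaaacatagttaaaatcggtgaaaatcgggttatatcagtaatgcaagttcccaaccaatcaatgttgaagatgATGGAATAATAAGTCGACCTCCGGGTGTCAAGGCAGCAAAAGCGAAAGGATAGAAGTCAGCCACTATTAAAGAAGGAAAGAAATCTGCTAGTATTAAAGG

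STRINGTIE_RNA_00035578 (chromosome 1, 14150396 to 14151768, between genes) followed another order. It had 6.32 and 6.63 CPM in rrp4-2, 28.1 and 28.8 CPM in hen2-4 and 0.0934 and 0.116 CPM in L57, so that both mutants exceeded the wild type and rrp4-2 less so (log2 fold change -2.16, SE 0.25, adjusted p = 0.00028). HOMER_RNA_00157005, antisense to a coding gene on chromosome 5, had 1.66 and 2.27 CPM in rrp4-2 and 7.46 and 8.84 CPM in hen2-4, and had no counts in L57 (log2 fold change -2.07, SE 0.38, adjusted p = 0.00641). HOMER_RNA_00119031, antisense to the WD40 repeat gene AT4G21520, had 0.134 and 0.214 CPM in rrp4-2, 1.34 and 1.62 CPM in hen2-4 and 0.156 and 0.223 CPM in L57 (log2 fold change -3.10, SE 0.58, adjusted p = 0.0323 as a transcript). Its coding partner did not pass (log2 fold change -0.14, SE 0.11, adjusted p = 0.556). STRINGTIE_RNA_00035578 kept its call without each library but lost it in DESeq2's Wald test (adjusted p = 0.2). HOMER_RNA_00157005 lost it without rrp4-2 replicate 1 (adjusted p = 0.079) or hen2-4 replicate 2 (adjusted p = 0.0796). HOMER_RNA_00119031 lost it without any 1 of the 4 (adjusted p from 0.101 to 0.25).

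De novo transcripts as a class took 0.104% and 0.112% of the counts in rrp4-2, 0.124% and 0.133% in hen2-4 and 0.0425% and 0.0400% in L57. The authors reconstructed this set from the reads of all samples, both mutants included. The shares are therefore no test of a rise over L57. The difference of the means of rrp4-2 and hen2-4 was -0.020 percentage points, the libraries did not overlap, and 2 libraries against 2 cannot reach a p under 0.05 in an exact test. Summed per locus, 8 of 1909 de novo loci were higher and 29 lower in rrp4-2, which is less than the 4.96% and 4.55% of all genes (4 to 7 higher and 10 to 23 lower when each library was left out in turn, with 10 lower without hen2-4 replicate 2). Among 5966 non-coding transcripts tested singly, 15 were higher and 16 lower, against 0.959% and 0.72% of all 46804 transcripts. With the further requirement of a log2 fold change of at least 2 in either direction, 9 were higher and 6 lower, against 0.229% of all transcripts in both directions. Without rrp4-2 replicate 1, the 31 calls among non-coding transcripts were 9, without rrp4-2 replicate 2 they were 19, without hen2-4 replicate 1 they were 12 and without hen2-4 replicate 2 they were 13.

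The 4 features tested in the spacer before an 18S rRNA gene on chromosome 3 were higher in rrp4-2 than in hen2-4. The external transcribed spacer of the rRNA precursor is a textbook substrate of the nuclear exosome. AT3G06325 (14196558 to 14196865, plus strand), a non-coding RNA that starts 1119 bases before the annotated 18S gene AT3G41768, had 225 and 119 CPM in rrp4-2, 25.1 and 35.0 CPM in hen2-4 and 106 and 87.9 CPM in L57 (log2 fold change 2.48, SE 0.22, adjusted p = 2.87e-05). MIR5642a (14196774 to 14197147, plus strand), annotated as a miRNA precursor and starting 903 bases before the 18S gene, had 360 and 212 CPM in rrp4-2, 63.4 and 84.9 CPM in hen2-4 and 132 and 112 CPM in L57 (log2 fold change 1.91, SE 0.19, adjusted p = 5.52e-05). Against L57, AT3G06325 differed by a log2 of 0.90 in rrp4-2 (SE 0.21, adjusted p = 0.00678) and -1.58 in hen2-4 (SE 0.21, adjusted p = 0.000133). MIR5642a likewise differed by a log2 of 1.304 in rrp4-2 (SE 0.18, adjusted p = 0.000254) and -0.61 in hen2-4 (SE 0.18, adjusted p = 0.0221). Both features share reads over 92 bases, so they are not separate measurements, and reads that map to several rRNA repeats were placed at 1 random location. Their common stretch, chr3:14196774-14196865 on the plus strand of TAIR10.1 (RefSeq), is shown because it belongs to both, without capitals.
AT3G06325 and MIR5642a: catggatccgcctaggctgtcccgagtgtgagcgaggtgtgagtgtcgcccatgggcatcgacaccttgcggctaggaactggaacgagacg

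AT3G41761, which starts 1760 bases before the 18S gene, had 111 and 85.7 CPM in rrp4-2, 55.5 and 46.2 CPM in hen2-4 and 89.0 and 65.1 CPM in L57 (log2 fold change 0.92, SE 0.13, adjusted p = 0.000697). AT3G41762, annotated as coding on the minus strand (14195447 to 14196865) and covering all of AT3G06325 and AT3G41761, had 121 and 76.6 CPM in rrp4-2, 41.4 and 54.1 CPM in hen2-4 and 75.3 and 62.5 CPM in L57 (log2 fold change 1.02, SE 0.15, adjusted p = 0.00132). Against L57, AT3G41761 differed by a log2 of 0.43 in rrp4-2 (SE 0.13, adjusted p = 0.0234) and -0.49 in hen2-4 (SE 0.13, adjusted p = 0.0114). AT3G41762 differed by 0.60 in rrp4-2 (SE 0.15, adjusted p = 0.0128) and did not pass in hen2-4 (log2 fold change -0.42, SE 0.15, adjusted p = 0.057). Mature 18S sequence did not differ detectably (AT3G41768, log2 fold change -0.11, SE 1.63, adjusted p = 1) and its level depends on the rRNA depletion, since it stood at 200 and 8994 CPM in the L57 libraries.

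Small nucleolar RNAs (snoRNAs) guide chemical modification of rRNA, and exosome cofactors trim their precursors. Of 248 snoRNA loci tested out of 287, 3 were higher and 33 lower in rrp4-2 than in hen2-4 (13.3% lower, against 4.55% of all genes), with a median log2 fold change of -0.30 over the 248 loci, against 0 over all genes. In 120 of them all rrp4-2 libraries were below all hen2-4 libraries and in 27 above, while the libraries of 51.7% of all genes did not overlap, 23.1% below and 28.5% above. The count of lower loci rested on every library, being 5 without rrp4-2 replicate 1, 14 without rrp4-2 replicate 2, 13 without hen2-4 replicate 1 and 5 without hen2-4 replicate 2. As a share of all counts, snoRNA loci took 0.0815% and 0.0777% in rrp4-2, 0.0646% and 0.0761% in hen2-4 and 0.0662% and 0.0625% in L57, since a few abundant loci dominate it. The abundant loci AT5G02565 and AT5G02575, chosen after their values were seen, went the other way, with 268 and 236 CPM in rrp4-2 for AT5G02565, against 166 and 177 CPM in hen2-4 and 204 and 204 CPM in L57 (log2 fold change 0.53, SE 0.11, adjusted p = 0.00851). The call of AT5G02565 was lost without rrp4-2 replicate 1 (adjusted p = 0.0766) or hen2-4 replicate 1 (adjusted p = 0.0857).

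The snoRNA examples that follow were also chosen after their values were seen. SNOR30 (AT5G51174, chromosome 5) had 2.73 and 1.99 CPM in rrp4-2, 3.84 and 3.90 CPM in hen2-4 and 0.675 and 0.642 CPM in L57 (log2 fold change -0.74, SE 0.11, adjusted p = 0.0013). AT1G75163 had 0.722 and 0.799 CPM in rrp4-2, 1.33 and 1.60 CPM in hen2-4 and 0.260 and 0.205 CPM in L57 (log2 fold change -0.96, SE 0.17, adjusted p = 0.00287). AT5G02675 had 1.04 and 0.875 CPM in rrp4-2, 1.66 and 1.86 CPM in hen2-4 and 0.301 and 0.294 CPM in L57 (log2 fold change -0.90, SE 0.16, adjusted p = 0.00394). All 3 were above L57 in every mutant library, with hen2-4 above rrp4-2. Short boxes named C and D mark the snoRNA class that guides methylation. A C box (TGATGA within the first 20 bases of the annotated locus) and a D box (CTGA within the last 16), both read on the strand of the locus, were found together in 20 of the 33 lower loci and in 106 of all 248 tested, without overlap between the boxes. Of the 33 lower loci, 18 lay within 1000 bases of another lower snoRNA locus. Others lay as close to snoRNA loci that did not pass, such as AT1G75163 beside AT1G75166 (adjusted p = 0.0822). Among the 33, 9 overlapped another feature on the same strand, 8 of them non-coding, so their reads are shared with those features. AT4G04475, also lower (log2 fold change -0.73, SE 0.14, adjusted p = 0.00574), held neither box and is not printed. The sequences of 5 other lower loci, shown because each carries a box that sorts the snoRNAs, have each box found in capitals.
SNOR30: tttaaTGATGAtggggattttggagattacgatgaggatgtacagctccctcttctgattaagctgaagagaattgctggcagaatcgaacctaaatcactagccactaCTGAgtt
AT1G75163: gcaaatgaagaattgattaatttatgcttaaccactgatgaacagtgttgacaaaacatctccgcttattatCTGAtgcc
AT5G02675: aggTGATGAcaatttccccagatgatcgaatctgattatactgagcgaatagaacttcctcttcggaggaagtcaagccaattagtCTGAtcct
AT3G47342: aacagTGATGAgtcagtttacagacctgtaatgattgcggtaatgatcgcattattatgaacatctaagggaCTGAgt
AT2G35744: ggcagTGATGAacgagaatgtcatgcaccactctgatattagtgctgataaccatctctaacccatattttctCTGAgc

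These runs are from TAIR10.1 of RefSeq, at chr5:20795936-20796051, chr1:28212395-28212474, chr5:5674579-5674672 (minus strand), chr3:17445382-17445459 and chr2:15029712-15029790 (minus strand), in the order printed and on the plus strand where none is named. AT1G75163 shows a D box only, since no C box letters stand within its first 20 bases. AT1G04277, the snoRNA locus with the largest rise, had 3.97 and 4.05 CPM in rrp4-2, 0.683 and 0.863 CPM in hen2-4 and 0.685 and 0.597 CPM in L57 (log2 fold change 2.35, SE 0.20, adjusted p = 2.25e-05). It lies inside the ribosomal protein gene AT1G04480 on the same strand, which rose far less (log2 fold change 0.36, SE 0.08, adjusted p = 0.0181), at 81.6 and 67.5 CPM in rrp4-2 and 54.2 and 60.1 CPM in hen2-4. This call was lost without rrp4-2 replicate 1 (adjusted p = 0.203) or hen2-4 replicate 1 (adjusted p = 0.189). The counts cannot assign reads between these overlapping features with certainty.

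**Figure D2:**
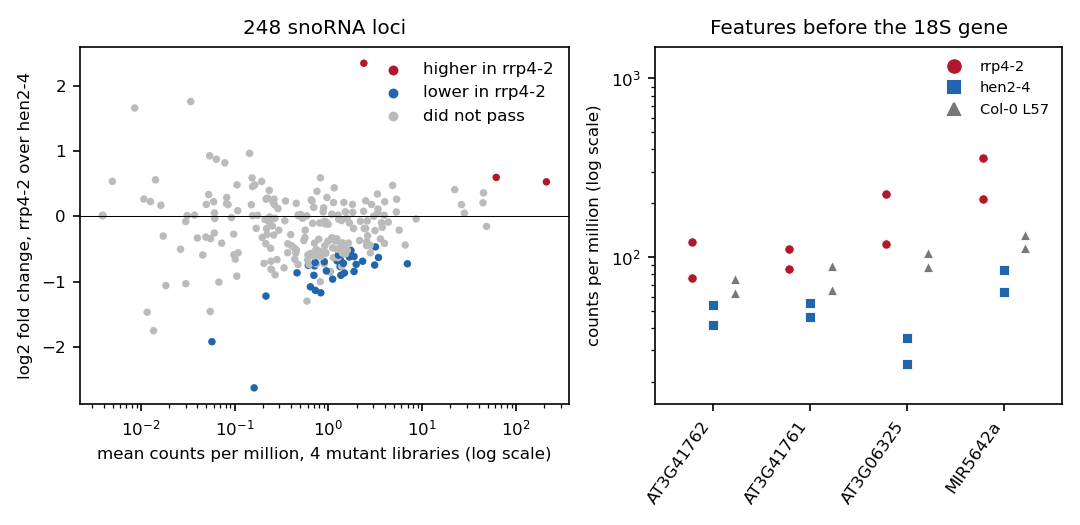
Left, log2 fold change of rrp4-2 over hen2-4 against the mean CPM of the 4 mutant libraries (log axis) for 248 snoRNA loci, with 3 higher and 33 lower loci in colour and 212 that did not pass in grey. Right, CPM (log axis) of the features before the 18S gene in each library, where the rrp4-2 circles lie above the hen2-4 squares, as at 225 and 119 against 25.1 and 35.0 CPM for AT3G06325.

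The 6 long non-coding RNAs that overlap lower snoRNA loci on the same strand were also lower in rrp4-2. AT1G05913 had 6.32 and 6.66 CPM in rrp4-2, 14.9 and 15.0 CPM in hen2-4 and 1.11 and 0.793 CPM in L57 (log2 fold change -1.23, SE 0.16, adjusted p = 0.000446). AT1G08103 had 4.53 and 4.08 CPM in rrp4-2, 8.82 and 8.87 CPM in hen2-4 and 1.02 and 0.606 CPM in L57 (log2 fold change -1.06, SE 0.13, adjusted p = 0.000333). AT3G09105 had 2.25 and 2.57 CPM in rrp4-2, 4.38 and 4.34 CPM in hen2-4 and 0.363 and 0.303 CPM in L57 (log2 fold change -0.87, SE 0.12, adjusted p = 0.000654). The other members of the 6 were AT3G04775 (log2 fold change -0.94, SE 0.15, adjusted p = 0.00187), AT1G16635 (log2 fold change -0.78, SE 0.13, adjusted p = 0.00277) and AT5G02645 (log2 fold change -0.62, SE 0.14, adjusted p = 0.0147). The call of AT5G02645 was lost without rrp4-2 replicate 1 (adjusted p = 0.141) or hen2-4 replicate 2 (adjusted p = 0.132). These RNAs share bases with the snoRNA loci, wholly or, for AT1G05913 and AT1G05907, in part, so their counts are not independent. A further snoRNA locus within AT1G05913, AT1G05917, did not pass (adjusted p = 0.865). For all 6 RNAs each mutant library was above both L57 libraries. The 6 RNAs belong to the annotated long non-coding RNAs not classed as antisense. Of 563 in that class, these 6 included, 13 were higher and 23 lower (2.31% and 4.09%, against 4.96% and 4.55% of all genes). The counts moved to 7 higher without hen2-4 replicate 1, 8 higher without hen2-4 replicate 2, and 13 lower without rrp4-2 replicate 1 or hen2-4 replicate 2. Of 705 annotated antisense long non-coding RNAs, 8 were higher and 7 lower, and of 1892 pseudogenes or transposon genes 20 were higher and 9 lower, below the 4.96% and 4.55% of all genes. For pseudogenes and transposon genes, 6 were higher without hen2-4 replicate 1, 10 without rrp4-2 replicate 1 and 12 without hen2-4 replicate 2, and 2 to 6 were lower when each library was left out, with 2 without rrp4-2 replicate 1. AT2G07042, a long non-coding RNA on the minus strand of chromosome 2 (2919953 to 2922249), beyond HEN2, had 1.18 and 1.06 CPM in rrp4-2, 3.58 and 3.42 CPM in hen2-4 and 0.758 and 0.731 CPM in L57 (log2 fold change -1.67, SE 0.16, adjusted p = 5.96e-05).

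Genes of iron uptake formed the list with the largest median, and most of its members rose in rrp4-2. The counts of this and every later list stand beside 4.96% higher and 4.55% lower over all genes. Of 22 members tested, 12 rose, 1 fell and 9 did not pass, with a median log2 fold change of 1.19, against 0 over all genes (9 to 10 higher when each library was left out in turn). IRT1 (AT4G19690), the root iron importer, had 2.64 and 3.96 CPM in rrp4-2, 0.148 and 0.430 CPM in hen2-4 and 0.0311 and 0.0356 CPM in L57 (log2 fold change 3.499, SE 0.51, adjusted p = 0.00335). FRO2 (AT1G01580), the ferric chelate reductase that supplies it, had 3.05 and 3.87 CPM in rrp4-2, 1.01 and 0.901 CPM in hen2-4 and 0.706 and 0.811 CPM in L57 (log2 fold change 1.84, SE 0.16, adjusted p = 2.18e-05). IMA3 (AT2G30766), a peptide that signals iron need, had 2.69 and 3.05 CPM in rrp4-2, 0.753 and 0.476 CPM in hen2-4 and 2.64 and 2.79 CPM in L57 (log2 fold change 2.205, SE 0.20, adjusted p = 5.15e-05). IRT1 and FRO2 were thus highest in rrp4-2, while IMA3 was lowest in hen2-4 and overlapped between rrp4-2 and L57. Another 3 members, named after their values were seen, also rose, namely the peptide genes IMA1 and IMA2 (log2 fold change 3.00, SE 0.29, and 2.69, SE 0.24) and the transcription factor gene BHLH38 (log2 fold change 3.04, SE 0.59). The call of BHLH38, at under 1 CPM in all libraries, was lost without hen2-4 replicate 1 (adjusted p = 0.0972) or hen2-4 replicate 2 (adjusted p = 0.0536). FER1, which encodes the iron store ferritin and is normally induced by ample iron, was the member that fell, at 109 and 98.2 CPM in rrp4-2, 159 and 178 CPM in hen2-4 and 132 and 124 CPM in L57 (log2 fold change -0.72, SE 0.09, adjusted p = 0.00033). Of 9 endodermis markers 0 passed in edgeR (1 higher at an unadjusted p under 0.05 and 0 by DESeq2). In 7 both rrp4-2 libraries were above both hen2-4 libraries and in 0 below, with a median log2 fold change of 0.29. Over all genes, 28.5% lay above in this way and 23.1% below. Their summed level was 71.0 and 70.0 CPM in rrp4-2, 55.5 and 60.4 CPM in hen2-4 and 86.1 and 79.0 CPM in L57. Of 10 root hair markers 2 were lower, and 0 when any of the 4 libraries was left out. The sum over the list was 57.0 and 57.4 CPM in rrp4-2, 77.4 and 92.2 CPM in hen2-4 and 214 and 190 CPM in L57. No marker of either list was at 0 in all 4 mutant libraries, and the part of cell type shares in the iron genes was not tested.

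Some transcripts of flavonoid and anthocyanin enzymes and regulators rose in rrp4-2. Of 19 members tested, 9 rose, 0 fell and 10 did not pass in edgeR (12 higher and 0 lower at an unadjusted p under 0.05, 7 and 0 by DESeq2), with a median log2 fold change of 0.94 and 8 to 9 higher when each library was left out. DFR (AT5G42800), the reductase at the entry to anthocyanins, had 9.52 and 6.74 CPM in rrp4-2, 1.39 and 1.44 CPM in hen2-4 and 18.5 and 11.04 CPM in L57 (log2 fold change 2.49, SE 0.35, adjusted p = 0.00138). LDOX (AT4G22880), the dioxygenase of the next step, had 14.1 and 8.27 CPM in rrp4-2, 2.05 and 1.86 CPM in hen2-4 and 17.8 and 12.0 CPM in L57 (log2 fold change 2.48, SE 0.33, adjusted p = 0.000687). UF3GT (AT5G54060), which adds a sugar to anthocyanins, had 3.45 and 2.56 CPM in rrp4-2, 0.423 and 0.499 CPM in hen2-4 and 7.89 and 5.36 CPM in L57 (log2 fold change 2.67, SE 0.50, adjusted p = 0.00466). These genes of the late steps were lowest in hen2-4 and did not pass between rrp4-2 and L57, where the adjusted p was 0.109 for DFR, 0.484 for LDOX and 0.114 for UF3GT. Against hen2-4, the call of UF3GT was lost without hen2-4 replicate 1 (adjusted p = 0.0569), and DESeq2's Wald test called neither DFR nor LDOX. CHS, the chalcone synthase gene of the first step, had 227 and 194 CPM in rrp4-2, 103 and 113 CPM in hen2-4 and 201 and 149 CPM in L57 (log2 fold change 0.94, SE 0.09, adjusted p = 7.15e-05). CHS was named after its values were seen.

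Genes of the cytosolic ribosome were higher in rrp4-2 by a small margin. Of 25 members tested, 19 rose and 0 fell in edgeR (25 higher and 0 lower at an unadjusted p under 0.05 and by DESeq2), and in all 25 both rrp4-2 libraries were above both hen2-4 libraries, as in 28.5% of all genes. The median log2 fold change was 0.45. The number that passed was 9 without rrp4-2 replicate 1, 17 without rrp4-2 replicate 2, 11 without hen2-4 replicate 1 and 15 without hen2-4 replicate 2. RPL4D (AT5G02870), a protein of the large subunit, had 348 and 286 CPM in rrp4-2, 201 and 209 CPM in hen2-4 and 331 and 274 CPM in L57 (log2 fold change 0.60, SE 0.08, adjusted p = 0.000733). RPL27AC (AT1G70600) had 97.1 and 88.5 CPM in rrp4-2, 61.5 and 62.6 CPM in hen2-4 and 105 and 83.1 CPM in L57 (log2 fold change 0.56, SE 0.09, adjusted p = 0.00225). The rrp4-2 and L57 libraries overlapped for both, and the hen2-4 libraries lay below. RPP0A (AT2G40010), an acidic stalk protein, had another order, at 15.4 and 12.9 CPM in rrp4-2, 8.83 and 9.04 CPM in hen2-4 and 9.89 and 9.39 CPM in L57 (log2 fold change 0.64, SE 0.12, adjusted p = 0.00434). Its call was lost without rrp4-2 replicate 1 (adjusted p = 0.0555). These families hold near-identical copies between which reads may be split. In the list of ribosome assembly factors, by contrast, 1 of 23 rose and 0 fell in edgeR (4 higher and 0 lower at an unadjusted p under 0.05, 2 and 0 by DESeq2), and the riser was NOP56, a core protein of C/D snoRNPs (log2 fold change 0.28, SE 0.07, adjusted p = 0.0252), although 0 rose without rrp4-2 replicate 1, hen2-4 replicate 1 or hen2-4 replicate 2 and 2 without rrp4-2 replicate 2.

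**Figure D3:**
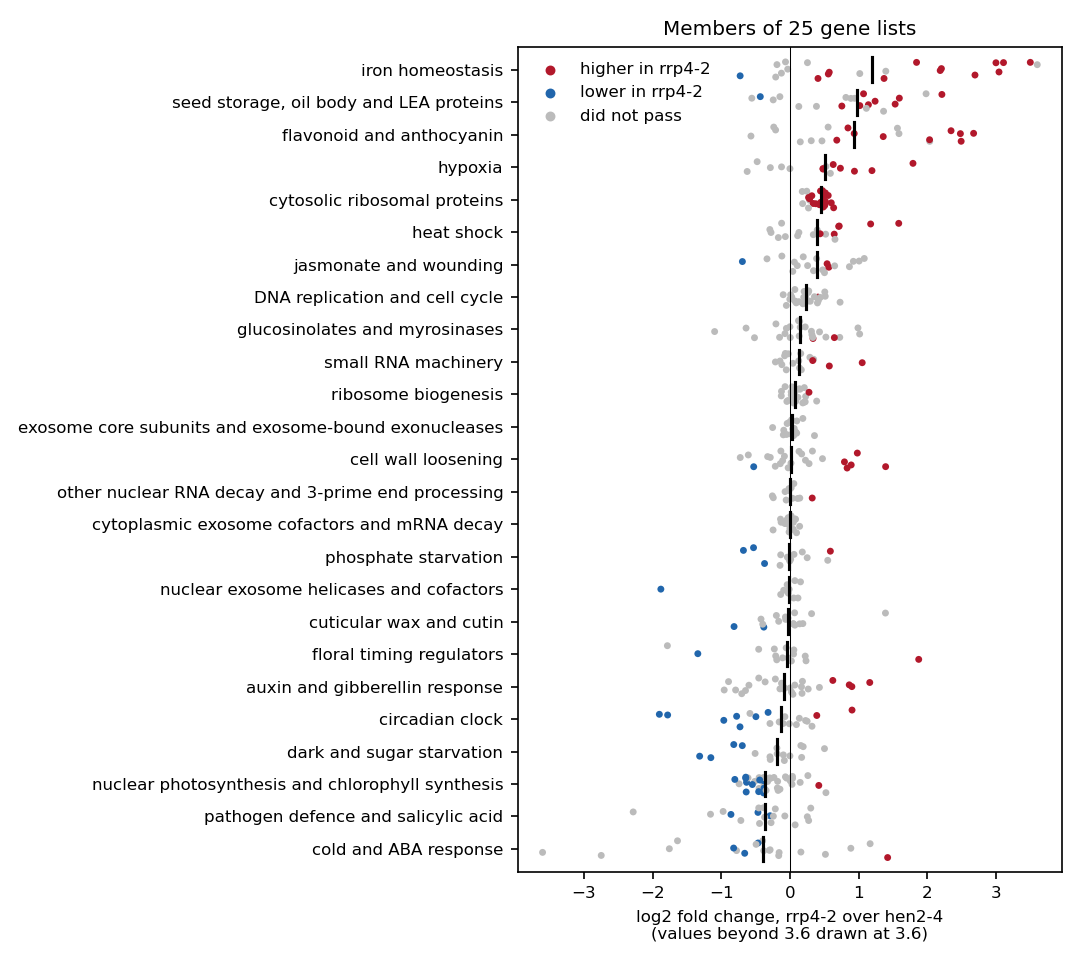
Log2 fold change of rrp4-2 over hen2-4 for each tested member of 25 gene lists, ordered by the list's median (black bar), with members higher in rrp4-2 in red, lower in blue and those that did not pass in grey, and values beyond 3.6 drawn at 3.6. The medians span 1.19 for iron homeostasis down to -0.39 for the cold and ABA response.

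Clock genes that moved were mostly lower in rrp4-2. The plant clock is a loop in which morning factors and the pseudo-response regulators of the later day repress each other. Of 20 clock members 7 were lower and 2 higher, with a median log2 fold change of -0.13 (6 to 8 lower when each library was left out in turn, and 1 higher without rrp4-2 replicate 2, hen2-4 replicate 1 or hen2-4 replicate 2). FKF1 (AT1G68050), an F-box blue light receptor of the afternoon, had 8.04 and 8.05 CPM in rrp4-2, 28.9 and 30.3 CPM in hen2-4 and 5.81 and 5.88 CPM in L57 (log2 fold change -1.90, SE 0.13, adjusted p = 4.53e-06). PRR5 (AT5G24470) had 14.5 and 15.1 CPM in rrp4-2, 48.7 and 51.3 CPM in hen2-4 and 11.5 and 12.8 CPM in L57 (log2 fold change -1.78, SE 0.10, adjusted p = 1.13e-06). PRR9 (AT2G46790) had 4.25 and 2.86 CPM in rrp4-2, 7.69 and 5.86 CPM in hen2-4 and 5.54 and 6.44 CPM in L57 (log2 fold change -0.96, SE 0.16, adjusted p = 0.00199). For FKF1 and PRR5 the hen2-4 libraries stood high above both other groups, and for PRR9 the rrp4-2 libraries were the lowest. TOC1, GI, PRR7 and CHE also fell, by 0.50, 0.32, 0.78 and 0.73 on the log2 scale. The activator gene RVE8 rose (log2 fold change 0.90, SE 0.09, adjusted p = 0.000101), at 11.05 and 8.97 CPM in rrp4-2, 5.77 and 4.73 CPM in hen2-4 and 18.96 and 15.8 CPM in L57. These members were named after their values were seen. GI lost its call without rrp4-2 replicate 2 (adjusted p = 0.125), hen2-4 replicate 1 (adjusted p = 0.0899) or hen2-4 replicate 2 (adjusted p = 0.0929). Seedlings grew in continuous light, and the labels give no hour of sampling beyond 57 h, so the clock time of the harvests was not compared.

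The evening element, the motif AAAATATCT to which morning clock factors bind, stood in more of the promoters of lower than of higher genes. Searched on both strands from 250 bases before to 50 after the annotated start (RefSeq, TAIR10.1), it was found in 124 of 1209 coding genes lower in rrp4-2 (10.3%) and in 31 of 1335 higher (2.32%), against 668 of all 23106 coding genes tested (2.89%). Of the 7 lower clock genes 4 held it, namely FKF1, PRR5, PRR9 and TOC1. It also stood in 1 of the 2 higher clock genes, BOA, and in 6 of all 20 clock genes. The order was the other way for site II elements (TGGGCC), found in 12.2% of the lower and 25.4% of the higher genes, against 17.3% of all, and for the telo-box (AAACCCTAA), found in 2.15% and 5.99%, against 3.32% of all. Site II letters stood in 16 of the 25 ribosomal protein promoters. The G-box (CACGTG) was found in 11.2% of the lower and 12.96% of the higher genes, against 8.49% of all. None of these 4 motifs contains another. A match is a description of the letters and not a bound site. The stretches from 250 to 141 bases before the start of 3 lower clock genes show the element in capitals, which reads AGATATTTT on the coding strand.
PRR5: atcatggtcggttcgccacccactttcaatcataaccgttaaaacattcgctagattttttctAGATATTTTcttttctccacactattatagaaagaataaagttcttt
FKF1: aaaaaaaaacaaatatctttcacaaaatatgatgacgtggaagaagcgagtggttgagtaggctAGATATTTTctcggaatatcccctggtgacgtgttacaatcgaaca
TOC1: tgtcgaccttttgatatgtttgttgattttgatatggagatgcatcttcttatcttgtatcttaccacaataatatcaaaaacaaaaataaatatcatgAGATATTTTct

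These stretches lie at chr5:8358687-8358796 (minus strand), chr1:25508389-25508498 and chr5:24674713-24674822 in the order printed, and the element begins 187, 186 and 151 bases before the start. In each of these genes both hen2-4 libraries were above both rrp4-2 libraries. TOC1, a repressor of the evening, had 65.1 and 67.9 CPM in rrp4-2, 90.13 and 94.66 CPM in hen2-4 and 33.8 and 32.2 CPM in L57 (log2 fold change -0.50, SE 0.08, adjusted p = 0.00255).

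**Figure D4:**
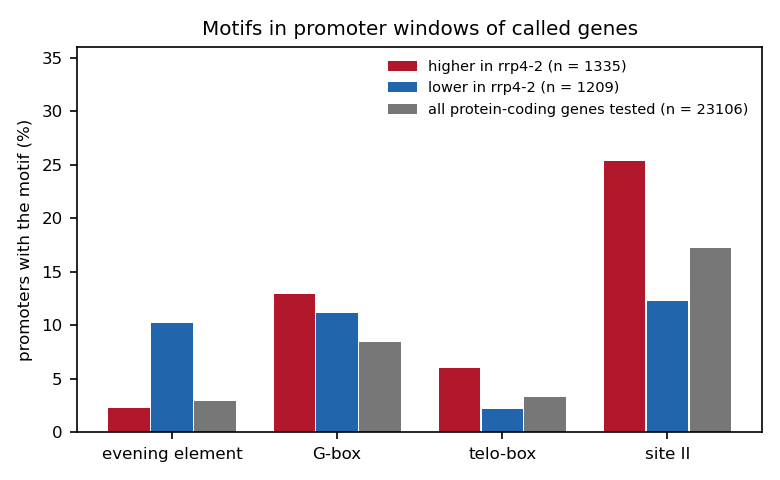
Share of promoter windows (percent, 250 bases before to 50 after the start) that hold each of 4 motifs, among 1335 coding genes higher in rrp4-2, 1209 lower and all 23106 tested. The evening element stands at 10.3% in the lower genes and 2.32% in the higher ones, and site II at 12.2% and 25.4%.

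Some nuclear genes of the photosynthetic apparatus fell in rrp4-2. Of 40 members 11 fell and 1 rose, with a median log2 fold change of -0.36, but the number that fell was 2 without rrp4-2 replicate 1, 6 without rrp4-2 replicate 2, 3 without hen2-4 replicate 1 and 2 without hen2-4 replicate 2. LHCB4.1 (AT5G01530), an antenna protein of photosystem II, had 1060 and 1004 CPM in rrp4-2, 1550 and 1621 CPM in hen2-4 and 1347 and 1460 CPM in L57 (log2 fold change -0.64, SE 0.10, adjusted p = 0.0015). PSAL (AT4G12800), a subunit of photosystem I, had 545 and 641 CPM in rrp4-2, 871 and 957 CPM in hen2-4 and 937 and 1004 CPM in L57 (log2 fold change -0.64, SE 0.13, adjusted p = 0.00647). The rrp4-2 libraries were the lowest for both. PSAL lost its call without rrp4-2 replicate 1 (adjusted p = 0.0786) or hen2-4 replicate 2 (adjusted p = 0.06). The member that rose was GSA1, an enzyme of chlorophyll synthesis (log2 fold change 0.42, SE 0.06, adjusted p = 0.00115). Chloroplast genes themselves went the other way, with 27 of 134 higher and 1 lower, although the number higher was 12 without rrp4-2 replicate 2, 16 without hen2-4 replicate 1 and 8 without hen2-4 replicate 2.

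A few genes of darkness and sugar starvation fell in rrp4-2 too. Of 16 members 4 fell and 0 rose in edgeR (1 higher at an unadjusted p under 0.05 and 0 by DESeq2), with 1 lower without rrp4-2 replicate 1 and 2 without hen2-4 replicate 2. DRM2 (AT2G33830), associated with dormancy, had 94.2 and 97.1 CPM in rrp4-2, 205 and 213 CPM in hen2-4 and 60.0 and 67.9 CPM in L57 (log2 fold change -1.15, SE 0.16, adjusted p = 0.000721). DIN6 (AT3G47340), the dark-induced asparagine synthetase, had 118 and 222 CPM in rrp4-2, 397 and 444 CPM in hen2-4 and 262 and 354 CPM in L57 (log2 fold change -1.31, SE 0.27, adjusted p = 0.00897). DIN6 differed widely between the rrp4-2 libraries and lost its call without rrp4-2 replicate 1 (adjusted p = 0.0616) or hen2-4 replicate 2 (adjusted p = 0.0588), and for DRM2 both mutants were above L57.

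Seed storage and late embryogenesis genes, which are normally silenced in seedlings, rose in part in rrp4-2. Of 20 members 8 rose and 1 fell, with a median log2 fold change of 0.98, and 0 fell when any of the 4 libraries was left out. The number that rose was 3 without rrp4-2 replicate 1, 6 without rrp4-2 replicate 2, 4 without hen2-4 replicate 1 and 10 without hen2-4 replicate 2. CRU3 (AT4G28520), a cruciferin storage globulin, had 15.9 and 11.8 CPM in rrp4-2, 5.80 and 5.69 CPM in hen2-4 and 14.3 and 18.01 CPM in L57 (log2 fold change 1.24, SE 0.23, adjusted p = 0.00466). SESA5 (AT5G54740), a storage albumin, had 4.02 and 2.75 CPM in rrp4-2, 1.26 and 1.03 CPM in hen2-4 and 3.39 and 2.89 CPM in L57 (log2 fold change 1.53, SE 0.19, adjusted p = 0.000332). The hen2-4 libraries were the lowest for both. Markers of endosperm and seed coat moved in both directions, with 3 of 7 higher, 1 lower and a summed level of 149 and 147 CPM in rrp4-2, 182 and 176 CPM in hen2-4 and 619 and 504 CPM in L57. The marker that fell was CP1, a peptidase gene that makes up most of that sum, at 98.4 and 87.9 CPM in rrp4-2 and 152 and 145 CPM in hen2-4 (log2 fold change -0.70, SE 0.12, adjusted p = 0.00304). Their part in the storage genes was not tested.

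Heat shock and hypoxia genes rose in part. Of 17 heat shock members 6 were higher and 0 lower in edgeR (8 and 0 at an unadjusted p under 0.05, 7 and 0 by DESeq2), with 1 lower without rrp4-2 replicate 1. HSP70 (AT3G12580), a chaperone, had 31.7 and 24.3 CPM in rrp4-2, 12.0 and 12.3 CPM in hen2-4 and 33.7 and 26.5 CPM in L57 (log2 fold change 1.17, SE 0.11, adjusted p = 4.04e-05). HSP101 (AT1G74310), a disaggregase, had 10.1 and 8.86 CPM in rrp4-2, 5.83 and 5.48 CPM in hen2-4 and 7.53 and 5.78 CPM in L57 (log2 fold change 0.72, SE 0.09, adjusted p = 0.00028). Of 14 hypoxia members 7 were higher and 0 lower in edgeR (8 and 2 at an unadjusted p under 0.05, 7 and 1 by DESeq2), with 4 higher without rrp4-2 replicate 1, rrp4-2 replicate 2 or hen2-4 replicate 2, and 1 lower without hen2-4 replicate 2. ADH1 (AT1G77120), the alcohol dehydrogenase of fermentation, had 2.19 and 1.85 CPM in rrp4-2, 0.497 and 0.648 CPM in hen2-4 and 3.97 and 2.49 CPM in L57 (log2 fold change 1.79, SE 0.19, adjusted p = 0.000106). HSP70 and ADH1 were lowest in hen2-4, and HSP101 was highest in rrp4-2.

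Few genes of the decay machinery passed. Among 16 exosome core and exonuclease genes 0 passed in edgeR (2 higher and 1 lower at an unadjusted p under 0.05, 1 and 1 by DESeq2), or 1 higher without rrp4-2 replicate 2, and their median log2 fold change was 0.03. Among 19 genes of cytoplasmic cofactors and mRNA decay 0 passed in edgeR (0 at an unadjusted p under 0.05 and 0 by DESeq2). HEN2 was the one of 10 nuclear helicases and cofactors that passed. In the remaining lists few members passed, between 0 and 5 in either direction. Of 17 small RNA genes 3 were higher, among them AGO2 (AT1G31280), an Argonaute, at 7.88 and 7.71 CPM in rrp4-2, 5.13 and 5.19 CPM in hen2-4 and 5.37 and 4.61 CPM in L57 (log2 fold change 0.57, SE 0.05, adjusted p = 4.76e-05). Of 23 cell wall genes 5 were higher and 1 lower (3 higher without rrp4-2 replicate 1, hen2-4 replicate 1 or hen2-4 replicate 2, and 0 lower without any 1 library), among them the wall-modifying XTH19 (AT4G30290), at 8.96 and 9.87 CPM in rrp4-2, 3.86 and 3.22 CPM in hen2-4 and 9.70 and 8.02 CPM in L57 (log2 fold change 1.39, SE 0.22, adjusted p = 0.00154). Of 19 pathogen defence genes 3 were lower, among them the immune receptor RPP4 (AT4G16860), at 76.7 and 59.0 CPM in rrp4-2, 120 and 121 CPM in hen2-4 and 24.4 and 24.4 CPM in L57 (log2 fold change -0.86, SE 0.09, adjusted p = 0.00014). Of 16 floral timing genes 1 was higher and 1 lower, with 0 lower when any of the 4 libraries was left out. The floral repressor FLC, named after its values were seen, had 1.35 and 1.41 CPM in rrp4-2, 0.326 and 0.414 CPM in hen2-4 and 7.77 and 6.16 CPM in L57 (log2 fold change 1.87, SE 0.13, adjusted p = 5.8e-06).

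Neighbouring genes on chromosome 1 rose together in rrp4-2. Across AT1G62914 to AT1G63140 (23301315 to 23419045, 118 kb), all 19 coding genes with at least 2 CPM in a mutant had positive log2 fold changes, from 0.36 to 1.33 with a median of 1.04, and 15 passed, against 7.04% of all coding genes at that level. The number that passed was 13 to 14 when each library was left out in turn. LPLAT2, a lysophospholipid acyltransferase gene, had 18.9 and 17.59 CPM in rrp4-2, 7.92 and 7.36 CPM in hen2-4 and 12.2 and 11.4 CPM in L57 (log2 fold change 1.23, SE 0.06, adjusted p = 6.32e-07). NRPD1 (AT1G63020), the largest subunit of RNA polymerase IV, which starts the small RNA pathway of gene silencing, had 13.5 and 12.3 CPM in rrp4-2, 5.69 and 6.55 CPM in hen2-4 and 4.64 and 4.57 CPM in L57 (log2 fold change 1.05, SE 0.13, adjusted p = 0.00033). ACS10, an aminotransferase gene, had 39.9 and 34.0 CPM in rrp4-2, 19.6 and 18.3 CPM in hen2-4 and 20.7 and 22.2 CPM in L57 (log2 fold change 0.94, SE 0.09, adjusted p = 4.04e-05). Against L57 the median over the 19 genes was 1.11 in rrp4-2, with 16 higher and 1 lower, and 0.04 in hen2-4, with 7 higher and 3 lower. The lower gene in rrp4-2 was the expansin gene EXPA18 (log2 fold change -0.94, SE 0.27, adjusted p = 0.0255), and those in hen2-4 were EXPA18 (-1.30, SE 0.28), LPLAT2 (-0.52, SE 0.06) and NRS/ER (-0.36, SE 0.07). Beyond it few genes passed, since of the 20 such genes before it 1 was higher and 2 lower (median 0.05) and of the 20 after it 1 was higher and 1 lower (median -0.05). It was found by looking at the values, which therefore carry no test of their own. The files hold no measure of genome copy number, and RRP4 lies far away on the same chromosome, near base 824517.

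**Figure D5:**
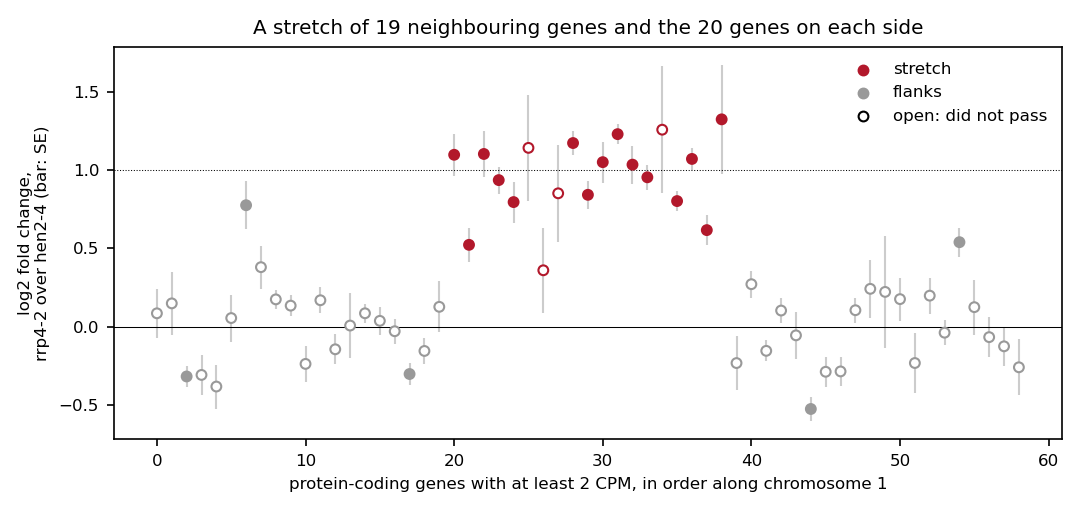
Log2 fold change of rrp4-2 over hen2-4 (bars, SE) for 19 neighbouring coding genes of chromosome 1 in red and the 20 coding genes on each side in grey, in genome order, with open points for genes that did not pass and a dotted line at a 2-fold difference. The 19 genes lie between 0.36 and 1.33, and the flanks scatter around 0.

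A window of chromosome 2 also stood out. Of 225 genes starting between 3 and 4 Mb, 57 were higher in rrp4-2, that is 25.3% higher, against a median of 4.55% over 121 windows of 1 Mb, and the higher genes ranged over 3240494 to 3498780 with a median log2 fold change of 0.67. The number was 33 without rrp4-2 replicate 1, 35 without rrp4-2 replicate 2, 23 without hen2-4 replicate 1 and 34 without hen2-4 replicate 2. This region is known to hold an insertion of mitochondrial DNA, and reads with several matching places were kept at 1 random location, so its counts and those of the mitochondrial genome cannot be told apart. Mitochondrial genes moved alike: 12 of 54 were higher and 0 lower in edgeR (19 and 0 at an unadjusted p under 0.05, 15 and 0 by DESeq2), with a median log2 fold change of 0.56. Mitochondrial transcripts took 0.0949% and 0.0968% of the counts in rrp4-2, 0.0778% and 0.0871% in hen2-4 and 0.0671% and 0.0610% in L57. Of the 12, the number that passed was 4 without rrp4-2 replicate 1, 8 without rrp4-2 replicate 2, 3 without hen2-4 replicate 1 and 4 without hen2-4 replicate 2.

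Single transcripts gave fewer calls than sums per locus. Of 46804 transcripts 449 were higher and 337 lower (1.68%), at 770 loci, of which 718 were also called as genes. At 3 loci an isoform rose while another fell and the locus did not pass. At PPT1 (AT4G23660), a prenyltransferase gene of ubiquinone synthesis, AT4G23660.4 had 1.50 and 1.09 CPM in rrp4-2 and no counts in hen2-4 and L57, while AT4G23660.5 had 1.099 and 1.57 CPM in rrp4-2, 4.78 and 4.22 CPM in hen2-4 and 3.499 and 1.72 CPM in L57. At ATCS (AT2G44350), a citrate synthase gene, AT2G44350.1 had 54.3 and 57.6 CPM in rrp4-2 and 41.7 and 41.6 CPM in hen2-4, whereas AT2G44350.2 had 3.05 and 2.14 CPM in rrp4-2 and 14.5 and 16.5 CPM in hen2-4. The third locus was AT3G09360, where AT3G09360.3 rose and AT3G09360.1 fell. The number of such loci was 0 without rrp4-2 replicate 1, 5 without rrp4-2 replicate 2, 0 without hen2-4 replicate 1 and 3 without hen2-4 replicate 2. Of the 6 isoforms, each lost its own call in at least 3 of the 4 fits that left out 1 library, and these isoform estimates have no check by another method here.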

How the data were processed

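Total RNA-seq was measured in 16 libraries of 8 groups, of which 2 of rrp4-2, 2 of hen2-4 and 2 of Col-0 L57 are described. Per the methods, the authors mapped stranded reads to TAIR10 with STAR 2.7.9a, keeping multimapping reads at 1 random location, and quantified annotated (Araport) and de novo transcripts with StringTie 2.1.4 after trimming with HOMER 4.11.1. The deposited expected counts per transcript are estimates that the file holds as whole numbers, so rounding left them as they were, and they were summed per locus. The deposited TPM values, made by the authors from the same quantification, served only to check that each column matched its name. No column was left without a sample.

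Rows that passed filterByExpr (28824 genes and 46804 transcripts) were fitted in R 4.3.3 with edgeR 4.0.16 (TMM, glmQLFit, glmQLFTest) over all 16 libraries, with 8 residual degrees of freedom, no covariates and p-values adjusted by Benjamini-Hochberg at a threshold of 0.05. A log2 fold change is rrp4-2 over hen2-4 unless another pair is named, and CPM is scaled to each library's total count. Promoters, loci and sequences came from RefSeq (TAIR10.1). A share of counts has a narrow 95% Wilson interval, as from 0.0945% to 0.0953% for mitochondrial transcripts in rrp4-2 replicate 1, which covers counting error only. The gene fit was tested on simulated data for this comparison (28824 genes), with differences placed only on genes of at least 1 CPM over the mutants. It found 91 of the 100 genes simulated with a 2-fold difference and 94 of the 100 simulated with a 4-fold one. It also called 22 genes simulated without a difference.

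Named were HEN2 and RRP4, the 10 largest rises and 10 largest falls (adjusted p under 0.05, libraries not overlapping, 5 CPM in the higher group), the 3 members of each list with the largest changes (2 CPM), 8 non-coding transcripts per direction (1 CPM) and up to 5 isoform loci, of which a selection is described. The members, lists and tests were chosen with earlier results of these data known. Alternatives were DESeq2 1.42.0 (its size factors in edgeR, and its Wald test), no low count filter, features outside organelles and rRNA, the 4 mutant libraries alone, the replicate block and leaving out each library in turn, in which a single remaining library was given the spread of the other groups. Pseudogenes and transposon genes are not separated in RefSeq, and organelle genes are given by class.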

Additional observations from a re-analysis of the deposited data

How the results depend on the processing

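No named result changed direction where it passed in the main or the alternative fit, and sign changes between values that did not pass were not counted. Of 1056 values for 96 named genes and transcripts under the alternatives, 811 kept their side of the threshold and 245 lost the call. Of the 96, 38 kept their side throughout. Against 2743 genes called, DESeq2's Wald test called 4265. Leaving out 1 library gave 1199 to 2099 genes, 204 to 460 transcripts, 9 to 19 non-coding transcripts, 1 to 4 de novo transcripts and 0 to 5 isoform loci. For the 786 transcripts, DESeq2 called 3465, no low count filter 446 and the 4 mutant libraries alone 3. For the 31 non-coding transcripts, DESeq2 called 210 and the 4 libraries alone 1. For the 5 de novo transcripts, DESeq2 called 54 and the 4 libraries alone 1. For the 3 isoform loci, DESeq2 gave 49, no filter 0 and the 4 libraries alone 0. The cause of these differences was not tested. With DESeq2 size factors in edgeR, 47.0% of 2849 called genes were higher, against 52.2% of the 2743. As shares of counts outside organelles and rRNA, the differences of rrp4-2 and hen2-4 were -0.0303 percentage points for de novo transcripts, 0.0226 for snoRNAs and 0.0866 for pseudogenes and transposon genes.

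Replicate numbers are shared across groups. The deviations of same-numbered libraries correlated between -0.33 and 0.24 over 28 pairs of groups, and at 0.12 between rrp4-2 and hen2-4. The labels do not say whether same-numbered samples were handled together, and these correlations cannot decide it. With the replicate block, 2616 genes, 606 transcripts and 0 isoform loci were called. With the block and the 4 mutant libraries alone, 4869 genes, 0 transcripts, 0 non-coding transcripts, 0 de novo transcripts and 0 isoform loci were called. Without the block, the 4 mutant libraries alone gave 3503 genes. The 2 libraries per line and low counts limit what could be detected among transcripts, where the simulation recovered 13 of 100 changed 2-fold and 32 of 100 changed 4-fold.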
